A study of Rattus norvegicus with 6 samples.

Results

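The troponin complex is the calcium switch of striated muscle, and 8 genes encode its isoforms in the rat. They were taken by symbol from the gene column of the count tables: Tnnt1, Tnnt2 and Tnnt3 for troponin T, Tnnc1 and Tnnc2 for troponin C, and Tnni1, Tnni2 and Tnni3 for troponin I. Of these 8 genes among the 18237 rows of the tables, 7 were measured and 4 had enough counts for a test. Tnni1, the slow skeletal troponin I gene, was not analysed here. Tnn, which encodes the matrix protein tenascin-N, is not a troponin and was left out.

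In a muscle thin filament, troponin sits on tropomyosin along actin. Troponin C binds calcium, troponin I holds the filament in the blocked state until calcium arrives, and troponin T anchors the complex to tropomyosin. Heart, slow skeletal and fast skeletal muscle each use their own isoforms, with troponin C shared between heart and slow muscle, and embryonic muscle often carries isoforms of more than 1 type.

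The libraries came from cultured rat cells labelled NRVM, which commonly stands for ventricular myocytes of newborn rats, although the growth protocol gives embryonic myocardium as their source. Cells of 3 libraries were given a control siRNA (siNT), and those of 3 others an siRNA against the metallothionein gene Mt2 (siMt2). The growth medium, DMEM with fetal bovine serum and antibiotics, was common to both groups, as is a protocol text that names dexamethasone, isobutylmethylxanthine and insulin. Strain, genotype and age, the time after siRNA, and whether replicates were separate cultures are not given in the labels, so p-values speak for the scatter among these libraries alone.

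Library totals ran from 2859759 to 6817777 counts, with the lowest in siMt2 replicate 3, and a count of 3 equalled 0.440 to 1.05 CPM there. The transcript of the targeted gene, Mt2a, averaged 118 ± 45.0 CPM (counts scaled to a common library total by TMM) in siNT and 99.9 ± 37.3 CPM in siMt2 (SD, n = 3 each). The groups overlapped (log2 fold change -0.28, edgeR adjusted p = 0.631), so a knockdown was not seen in the RNA and the groups are named by their labels. Of 14 heart muscle markers, 10 had a row, and 5 of these (Myh6, Actc1, Mybpc3, Myl7 and Nppb) had 10 or fewer counts over all 6 libraries. The summed level of the heart markers was 40.4 to 48.2 CPM in siNT and 39.8 to 43.0 CPM in siMt2, most of it from the cytochrome oxidase subunit gene Cox6a2. The other heart markers on this list were low, with 24 counts for Ryr2, 34 for Myl4, 41 for Csrp3 and 51 for Pln over all libraries. Those without a row, such as Myl2 and Myl3, were not analysed here. Fewer cells of a type and less RNA per cell cannot be told apart in bulk libraries.

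Troponin C and troponin T transcripts of both the cardiac and the fast skeletal kind were present in every library, whereas the measured troponin I genes were close to 0. Summed over all libraries, the troponin T genes had 1538 counts and the troponin C genes 2083. Tnni2 and Tnni3 together had 5. All 4 testable genes, Tnnc1, Tnnc2, Tnnt2 and Tnnt3, were higher in the libraries labelled siMt2, by 1.64 to 2.99 times, and none was lower. Among all 11726 genes tested, 50.9% passed an edgeR adjusted p of 0.05 in either direction. A higher level in siMt2 was passed by 25.8% and a lower level by 25.1%. These shares are the background for the gene lists below as well. Each of the 4 genes had at least 35 counts in every library, so none entered the test through 1 group alone. Counts of different genes are not compared as levels below, because transcript lengths were not used here.

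**Figure D1:**
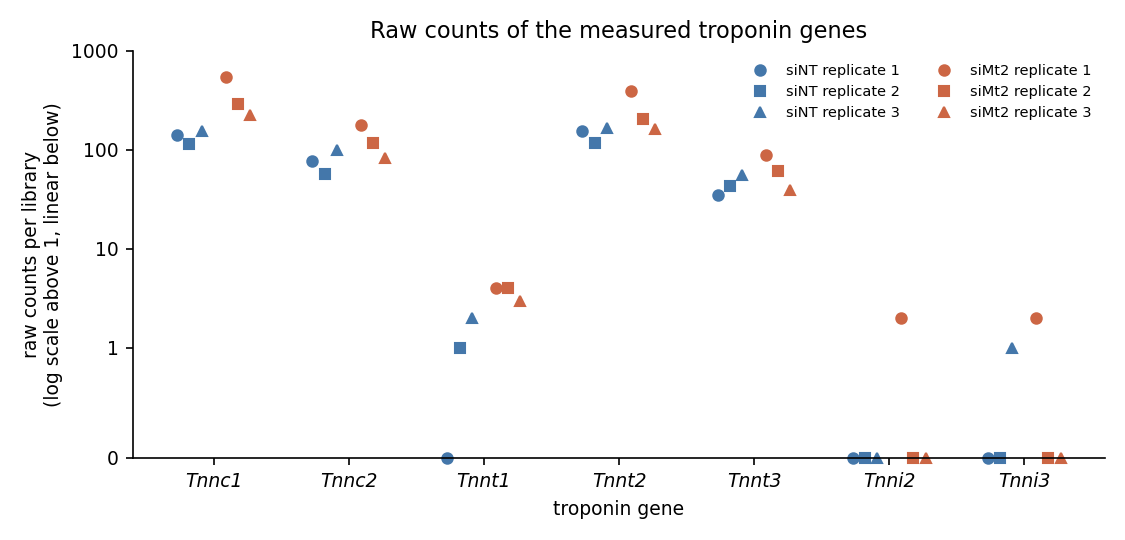
Raw counts of the 7 measured troponin genes, 1 point per library (log axis above a count of 1, linear below), with siNT in blue and siMt2 in orange and symbols for the replicate number. Tnnc1, Tnnc2, Tnnt2 and Tnnt3 have 35 to 547 counts in each library, Tnnt1 has 0 to 4, and Tnni2 and Tnni3 have 0 to 2.

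Both genes of the calcium-binding subunit rose, and Tnnc1 had the highest fold change of the 4 genes tested. Tnnc1 encodes the troponin C of heart and slow skeletal muscle. It stood at 25.6, 27.5 and 23.4 CPM in siNT replicates 1, 2 and 3 and at 79.9, 67.9 and 79.6 CPM in the siMt2 replicates. Every siMt2 value lay far above every siNT value, and siMt2 replicate 2 was the lowest of its group. Group means came to 25.5 ± 2.02 and 75.8 ± 6.84 CPM (SD, n = 3 each). The log2 fold change was 1.58 (SE 0.11, 95% interval 1.36 to 1.80, edgeR adjusted p = 1.71e-10), or 2.99 times the siNT level. Of all genes tested, 240 (2.05%) had a log2 fold change at least as high.

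Tnnc2 encodes the troponin C of fast skeletal muscle, which binds more calcium ions at its regulatory end than the cardiac form. It stood at 13.9, 13.6 and 15.2 CPM in siNT replicates 1, 2 and 3 and at 26.1, 27.9 and 29.2 CPM in the siMt2 replicates. The groups did not overlap, and the replicates of each group lay close together. This gave means of 14.2 ± 0.825 and 27.8 ± 1.55 CPM (SD, n = 3 each). Its log2 fold change was 0.94 (SE 0.14, 95% interval 0.65 to 1.23, edgeR adjusted p = 1.03e-05), a level 1.92 times that of siNT.

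The tropomyosin-binding subunit rose as well. Tnnt2 encodes the cardiac troponin T, which embryonic skeletal muscle also makes for a time. It stood at 28.2, 27.7 and 25.6 CPM in siNT replicates 1, 2 and 3 and at 57.5, 48.5 and 57.4 CPM in the siMt2 replicates. Again no siNT value reached the siMt2 range, and siMt2 replicate 2 was the lowest of its group, as for Tnnc1. Averages were 27.2 ± 1.38 and 54.5 ± 5.19 CPM (SD, n = 3 each). The log2 fold change was 1.01 (SE 0.11, 95% interval 0.78 to 1.23, edgeR adjusted p = 1.81e-07), or 2.01 times the siNT level.

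Tnnt3 encodes the fast skeletal troponin T. It stood at 6.32, 10.3 and 8.58 CPM in siNT replicates 1, 2 and 3 and at 13.0, 14.4 and 13.7 CPM in the siMt2 replicates. The siNT libraries were spread out, with replicate 1 the lowest, while the siMt2 libraries lay close together and above all of them. Group means were 8.39 ± 1.98 for siNT and 13.7 ± 0.716 CPM for siMt2 (SD, n = 3 each), with a replicate coefficient of variation of 23.6% in siNT. Counting error alone was 16.9% for its smallest count, 35 in siNT replicate 1. The log2 fold change was 0.72 (SE 0.21, 95% interval 0.29 to 1.15, edgeR adjusted p = 0.00666), and without siNT replicate 1 it was 0.54 (edgeR adjusted p = 0.0488).

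**Figure D2:**
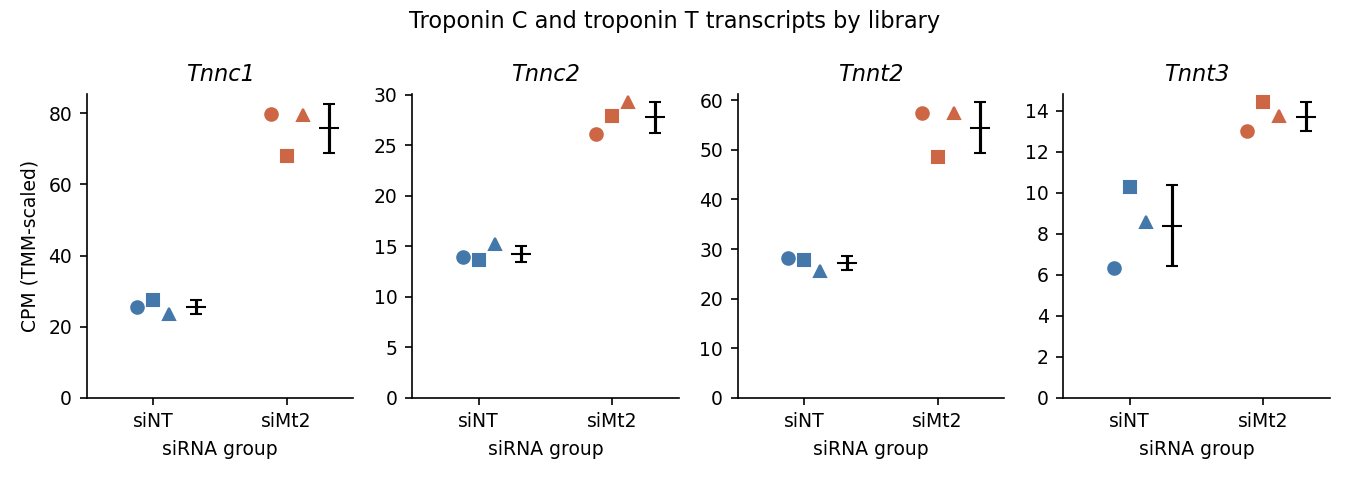
CPM of the 4 troponin genes that could be tested, by siRNA group (circle, square and triangle for replicates 1, 2 and 3; bar, mean ± SD of 3 libraries; each axis starts at 0 and has its own scale). In all 4 genes the siMt2 libraries lie above the siNT libraries, with the widest gap for Tnnc1 (25.5 and 75.8 CPM) and the widest siNT scatter, relative to its mean, for Tnnt3 (23.6%).

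All 3 siMt2 libraries lay above all 3 siNT libraries for Tnnc1, Tnnc2, Tnnt2 and Tnnt3, as they did for 28.9% of all genes tested. Among the genes tested, Tnnc1 had a larger fold change than Tnnc2, and Tnnt2 a larger one than Tnnt3. Whether isoforms of 1 subunit changed by different amounts was tested on their ratio within each library. For troponin C, the counts of Tnnc1 were 1.84, 2.01 and 1.54 times those of Tnnc2 in siNT replicates 1, 2 and 3. In the siMt2 replicates they were 3.05, 2.43 and 2.71 times those of Tnnc2. The groups did not overlap, and on the log2 scale the ratio was higher in siMt2 by 0.61 (SE 0.15). The exact two-sided permutation test over 20 assignments gave p = 0.1, the smallest value that 3 against 3 libraries allow, and 0.2 after Benjamini-Hochberg adjustment over the 2 pairs compared, so the design cannot pass a threshold of 0.05.

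In shares, Tnnc1 made up 64.8% (exact 95% binomial interval 58.1 to 71.2%), 66.9% (59.3 to 73.8%) and 60.7% (54.4 to 66.8%) of troponin C counts in siNT replicates 1, 2 and 3. It made up 75.3% (72.0 to 78.4%), 70.9% (66.2 to 75.2%) and 73.1% (67.8 to 78.0%) in the siMt2 replicates. Several of these intervals, which cover counting error only, overlap between the groups. The mean share was 64.1 ± 3.13% and 73.1 ± 2.24% (SD, n = 3 each). The fast isoform Tnnc2 made up the rest, 35.9 ± 3.13% in siNT and 26.9 ± 2.24% in siMt2.

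For troponin T, the counts of Tnnt2 were 4.41, 2.68 and 2.96 times those of Tnnt3 in siNT replicates 1, 2 and 3, and 4.41, 3.34 and 4.14 times in the siMt2 replicates. The groups overlapped, with siNT replicate 1 as high as the highest siMt2 library. The log2 ratio differed by 0.27 (SE 0.25; exact two-sided permutation p = 0.4, adjusted p = 0.4 over the 2 pairs). That difference was 0.48 without siNT replicate 1 (exact permutation p = 0.2) and 0.12 without siNT replicate 2 (exact permutation p = 0.7), so its size rests on single libraries. Tnnt2 made up 76.1 ± 4.88% of troponin T counts in siNT and 78.8 ± 2.57% in siMt2 (SD, n = 3 each), and Tnnt3 made up 23.4 ± 4.47% and 19.96 ± 2.31%.

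**Figure D3:**
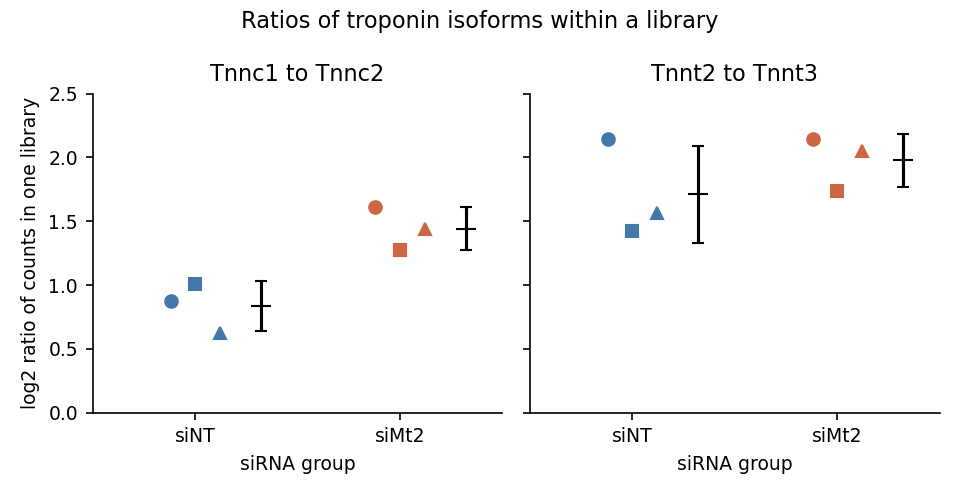
Log2 ratio of the counts of 2 isoforms in the same library, for troponin C (left) and troponin T (right), by siRNA group (circle, square and triangle for replicates 1, 2 and 3; bar, mean ± SD of 3 libraries). The Tnnc1 to Tnnc2 ratio does not overlap between groups, whereas siNT replicate 1 of the Tnnt2 to Tnnt3 ratio reaches the highest siMt2 value.

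The slow skeletal troponin T and the measured troponin I genes lay below the level at which a test was run. Tnnt1, the slow skeletal troponin T gene, had 0, 1 and 2 counts in siNT replicates 1, 2 and 3 and 4, 4 and 3 counts in the siMt2 replicates. These are 3 of 16345901 counts in siNT (0.184 CPM of the pooled totals, without TMM scaling, exact 95% binomial interval 0.0378 to 0.536) and 11 of 13898367 in siMt2 (0.791 CPM, 0.395 to 1.42). The ratio of the pooled shares was 4.31, with a wide counting interval of 1.14 to 24.1. On the log2 scale it was 2.11, and it was 1.51 without siNT replicate 1 and 2.95 without siNT replicate 3. An edgeR fit with no filter gave an adjusted p of 0.164 for it.

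Tnni3 encodes the cardiac troponin I, the protein measured in blood as a sign of heart muscle injury. It had 0, 0 and 1 counts in siNT replicates 1, 2 and 3 and 2, 0 and 0 in the siMt2 replicates. Tnni2, the fast skeletal troponin I gene, had 0 counts in every siNT library and 2, 0 and 0 counts in the siMt2 replicates. Both genes were at or under 3 counts in each group, and no fold change is given for them. The limit of 3 counts that a count of 0 allows puts Tnni2 at up to 0.184 CPM of the pooled siNT total (exact 95% upper limit 0.226 CPM). Its 2 counts in siMt2 are 0.144 CPM (exact 95% binomial interval 0.0174 to 0.520). At this depth a difference between groups was not detectable for either gene.

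Most troponin genes lie near a gene of another troponin subunit. In the RefSeq gene order of assembly GRCr8, Tnni3 and Tnnt1 are direct neighbours. Tnni1 and Tnnt2 lie close together on chromosome 13, and Tnni2 and Tnnt3 on chromosome 1, each with other genes between them. Tnnt2, with 1201 counts over all libraries, thus lies near a slow troponin I gene not analysed here. Tnnt3 had 323 counts and Tnni2, near it, had 2. Tnnt1 and Tnni3 had 14 and 3 counts. In that annotation, no other protein-coding or long noncoding gene overlaps Tnnt2, Tnnt3, Tnnc1 or Tnnc2, whereas the span given for Tnni2 overlaps Ctsd, Syt8, Ifitm10 and an unnamed locus.

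The DNA upstream of Tnnt2 and Tnnc2 is shown because both genes rose and each is the only testable isoform of its subunit with an entry among the RefSeq promoter sequences, which cover 6 of the 8 genes and not Tnnc1 or Tnnt3. Each sequence is the 250 bases before the gene's start, 5′ to 3′ on the gene's strand, from RefSeq build GRCr8, which is not the build of the counts. Tnnt2 is at chr13:49818873-49819122 on the plus strand (the first of 2 start sites listed), and Tnnc2 is at chr3:173935340-173935589 on the minus strand. Capitals mark matches to CANNTG (the E-box bound by MyoD and related factors) and CATTCC (the MCAT element bound by TEAD factors).
Tnnt2: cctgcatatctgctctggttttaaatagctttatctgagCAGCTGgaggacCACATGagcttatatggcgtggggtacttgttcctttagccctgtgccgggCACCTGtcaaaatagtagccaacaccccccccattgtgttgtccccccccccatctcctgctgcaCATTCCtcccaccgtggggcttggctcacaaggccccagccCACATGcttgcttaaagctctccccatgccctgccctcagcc
Tnnc2: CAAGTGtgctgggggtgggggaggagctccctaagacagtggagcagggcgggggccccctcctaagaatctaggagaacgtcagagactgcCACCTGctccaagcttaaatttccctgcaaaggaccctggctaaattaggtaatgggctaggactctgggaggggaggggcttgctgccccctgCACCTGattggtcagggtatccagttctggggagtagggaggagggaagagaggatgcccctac

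The Tnnt2 sequence holds 4 E-box matches and the only CATTCC match found upstream of these 6 genes, 83 to 78 bases before the start. The Tnnc2 sequence holds 3 E-box matches, one of them at the first base of the window. Both strands were searched, and none of the matches overlap. Over all 33469 RefSeq promoter windows of the same length, 65.5% hold an E-box and 12.1% hold CATTCC. Neither sequence holds TATAAA, which 12.9% of all windows hold, or a match to the MEF2 or CArG motif, held by 2.96% and 1.497%. TATAAA was found upstream of Tnnt1 and, on the opposite strand, Tnni2. Upstream of the second Tnnt2 start site, not shown, the only match was an E-box, CAGTTG, with no CATTCC. Which start site these cells use was not tested. These letter matches are a description and were not set against the fold changes.

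The other genes of the thin filament, which carry or cap the actin on which troponin works, changed in both directions. Of 16 such genes fixed as a list, 15 had a row and 12 were tested, with 7 higher, 2 lower and 3 not passing. Their median log2 fold change was 0.27, against 4.90e-04 for all genes tested. Tpm1, a tropomyosin to which troponin T binds, was at 588 ± 11.3 CPM in siNT and rose to 905 ± 22.0 CPM in siMt2, a log2 fold change of 0.62 (SE 0.04). The tropomyosin gene Tpm4 (0.49, SE 0.04) and Lmod1, a leiomodin gene of smooth muscle (0.73, SE 0.09), rose too. Lmod3, the leiomodin of skeletal muscle thin filaments, fell from 15.7 ± 2.17 to 4.81 ± 1.06 CPM (-1.75, SE 0.23). The other gene that fell, Tmod4, a skeletal muscle tropomodulin, was named after its value was seen (-1.62, SE 0.52). It had 14, 9 and 31 counts in siNT replicates 1, 2 and 3 and 3, 5 and 6 in the siMt2 replicates. The siMt2 counts of Tmod4 alone were too few for a test, so it entered through siNT, where it is higher. The sarcomeric actins were near absent, with 4 counts over all libraries for Actc1 and 30 for Acta1.

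Genes that regulate actin or bind calcium without troponin, listed together with the smooth muscle actin genes Acta2 and Actg2, mostly rose with it. Of 10 tested, 9 were higher and 1 was lower, with a median log2 fold change of 0.64. Over all genes tested, 25.8% passed as higher and 25.1% as lower. Tagln, a smooth muscle actin-binding protein gene, rose by 1.74 on the log2 scale (SE 0.04) and the smooth muscle actin genes Acta2 (0.81, SE 0.03) and Actg2 (0.70, SE 0.04) rose. Cnn3, encoding an actin-binding calponin, rose from 451 ± 17.3 CPM in siNT to 652 ± 18.1 CPM in siMt2 (0.53, SE 0.04). The gene that fell was Cald1, encoding the actin-binding caldesmon, named after its value was seen (-0.34, SE 0.04).

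**Figure D4:**
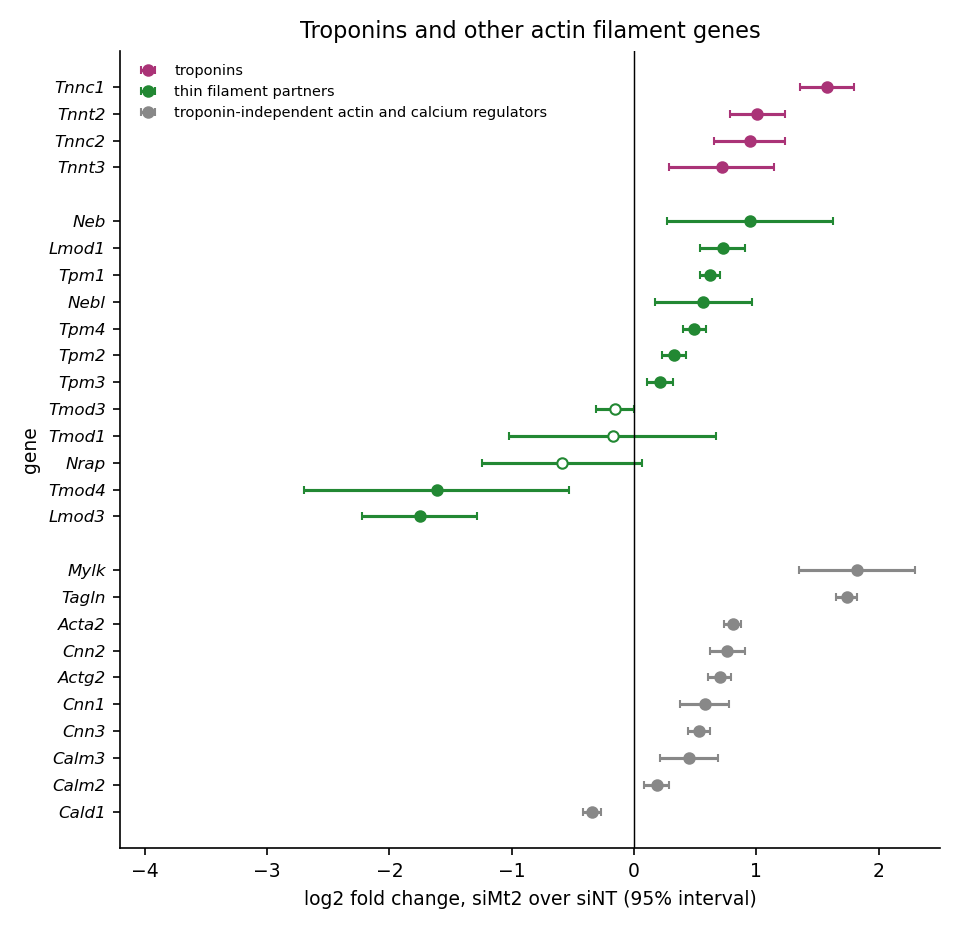
Log2 fold change of siMt2 over siNT with its 95% interval (filled, edgeR adjusted p under 0.05, and open, not passing). Shown are the tested troponins, their thin filament partners, and actin or calcium regulators that act without troponin. The regulators were listed together with the smooth muscle actin genes Acta2 and Actg2. The 4 troponins lie between 0.72 and 1.58, the partners between -1.75 and 0.95, and Cald1 is the only gene of the regulator list below 0.

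Genes of the Z-disc, which anchors the thin filament, went both ways among the 7 tested of 16, with 4 higher, 2 lower and a median of 0.26. The intermediate filament gene Des rose from 6.78 ± 3.02 CPM in siNT to 25.1 ± 3.27 CPM in siMt2, by 1.84 on the log2 scale (SE 0.22), and Ldb3 (1.17, SE 0.20) and Synpo2 (1.07, SE 0.13) rose. The genes that fell were Cryab, a small heat shock protein gene (-0.78, SE 0.07), and Xirp1 (-0.81, SE 0.20), the latter named after its value was seen.

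Markers of the muscle types were read beside the troponins of the same type. Of 19 fast skeletal markers, 16 had a row and 6 were tested, with 3 higher, 1 lower and a median log2 fold change of 0.63. The calsequestrin gene Casq1 (0.78, SE 0.19), the calcium channel gene Cacna1s (0.80, SE 0.24) and the release channel gene Ryr1 (1.13, SE 0.39) rose. Ryr1 had 11, 10 and 7 counts in siNT replicates 1, 2 and 3 and 25, 15 and 13 in the siMt2 replicates. Its siNT counts alone were too few for a test, so it entered through siMt2, where it is higher. The fast myosin gene Myh1 fell from 16.7 ± 1.32 to 10.8 ± 1.79 CPM (-0.60, SE 0.18). The fast markers Myh2, Myh4, Myl1, Mylk2 and Myoz1 had 10 or fewer counts over all libraries. The summed level of the fast markers was 45.3 to 45.7 CPM in siNT and 50.4 to 55.8 CPM in siMt2.

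Of 10 slow skeletal markers, 7 had a row and 4 were tested, with 2 higher, 1 lower and a median of 0.21. The calsequestrin gene Casq2 (log2 fold change 1.16, SE 0.06) and the tropomyosin gene Tpm3 (0.21, SE 0.05) rose, and the calcium pump gene Atp2a2 fell (-0.50, SE 0.04). Casq2 averaged 98.6 CPM in siNT and 220 CPM in siMt2, and Atp2a2 756 and 534 CPM. Both were listed under slow muscle only, and their use in other muscle or cells was not examined. Of the 14 genes listed as heart markers only Cox6a2 was tested, at -0.11 (SE 0.11, edgeR adjusted p = 0.443). That list does not stand for all genes of heart muscle.

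Markers of other cells were measured beside them. The summed level of 9 smooth muscle markers was 2268 to 2310 CPM in siNT and 4374 to 4479 CPM in siMt2, with 8 of 9 higher. Of all genes tested, 25.8% passed as higher. Most of these markers (Acta2, Tagln, Cnn1, Mylk, Actg2, Lmod1 and Synpo2) are also on the lists above, so their rises are not separate results. Smtn, which is not on those lists, did not pass (-0.04, edgeR adjusted p = 0.851). That of 9 fibroblast markers with a row was 7601 to 7755 CPM and 9884 to 13857 CPM, with 6 of 8 tested higher and Pdgfra at 2 counts in all. Among those higher, Dcn had 4, 5 and 0 counts in siNT and 14, 12 and 15 in siMt2. Lum, likewise among them, had 5, 0 and 2 counts in siNT and 23, 11 and 10 in siMt2. Both, named after their values were seen, entered the test only through siMt2, so their rises are weak support for this tally. Endothelial markers summed to 76.3 to 85.4 CPM in siNT and 33.5 to 40.9 CPM in siMt2, with 1 of 2 tested lower and Tie1 at 3 counts over all libraries. Most of that sum was Eng, at 73.0 ± 5.06 and 31.6 ± 6.26 CPM, while Vwf, at 5.91 ± 1.27 and 5.12 ± 2.89 CPM, did not pass (edgeR adjusted p = 0.398). Leukocyte markers summed to 23.2 to 27.9 CPM and 14.7 to 18.7 CPM, with Ptprc at 2 counts. Most of that sum was Cd14, the only one tested, which fell from 23.5 ± 1.97 to 14.4 ± 1.60 CPM. Most, but not all, of the smooth muscle and fibroblast markers in the fit rose, as the troponins did. The part of these cells in the troponin changes was not tested.

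Transcription factors of striated muscle did not rise as a group. Of 24, 21 had a row and 18 were tested, with 2 higher, 7 lower, 9 not passing and a median log2 fold change of -0.21. Over all genes tested, 25.8% passed as higher and 25.1% as lower. Mef2c, a muscle enhancer factor gene, fell from 169 ± 3.06 to 65.3 ± 4.33 CPM (-1.38, SE 0.07), and Mef2a (-0.61, SE 0.05), Mef2d (-0.64, SE 0.08) and the TEAD cofactor gene Vgll3 (-0.89, SE 0.06) fell. The genes that rose were Srf, whose product binds CArG boxes (0.61, SE 0.11), and Myod1, a skeletal myogenic factor gene (0.46, SE 0.14). Myog, which encodes myogenin, fell from 5.62 ± 1.99 to 1.94 ± 0.487 CPM (-1.47, SE 0.37). It had 43, 22 and 25 counts in siNT and 14, 10 and 4 in siMt2. The siMt2 counts of Myog alone were too few for a test, so it entered through siNT, where it is higher. Srf, Myod1 and Myog were named after their values were seen.

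The genes whose profiles over the 6 libraries were most like those of each troponin were found by the root mean square distance of log2 CPM, each gene centred on its own mean, among 8706 genes with a mean of at least 10 CPM. Nearest to Tnnc1 were Car3, Akr1b8 and Myl9, at distances of 0.083, 0.085 and 0.095. Nearest to Tnnt2 were Hbegf, Dtl and Atmin (0.038, 0.056 and 0.060), and nearest to Tnnc2 were Creb5, Nol3 and Smc4 (0.027, 0.035 and 0.041). Nearest to Tnnt3 were Snrpf, Als2cl and Heg1 (0.036, 0.086 and 0.093). Myl9, a regulatory light chain gene of smooth muscle myosin, averaged 191 CPM in siNT and 550 CPM in siMt2. With 25.8% of all genes higher in siMt2, many profiles share this shape.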

How the data were processed

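RNA of cultured rat cells was sequenced in 6 libraries, 3 siNT and 3 siMt2, which were grouped by sample title. Total RNA was made into libraries with a SMARTer mRNA-seq kit, per the labels' protocols. The authors deposited raw counts per gene, without normalization. Per the submitters' processing notes, the tools were HISAT2 2.2.1, Trimmomatic 0.40, featureCounts, DESeq2 and limma, with build rn6. Strand and multi-mapping settings are not given in the sources used here, so reads of overlapping genes or near-identical copies could not be separated.

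The 6 files hold the same 18237 rows. In 25 of them a spreadsheet had turned names into dates, and none is a troponin. The groups were compared with edgeR 4.0.16 (R 4.3.3), using filterByExpr (minimum count 10), TMM scaling and the robust, two-sided quasi-likelihood test. Its p-values were adjusted by Benjamini-Hochberg over every gene in the fit, and 0.05 was the threshold. CPM are TMM-scaled. SD is over 3 libraries, and 95% binomial intervals are exact (Clopper-Pearson). Reads carry no molecular identifiers, so intervals and the limit of 3 counts cover counting error only. Precision is limited by depth, which was 2859759 to 6817777 counts. Isoform ratios used log2 counts with 0.5 added, for pairs with at least 5 counts in every library, and an exact permutation test. Levels per coding length were planned but not computed, since transcript lengths were not used here.

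The members, gene lists and tests were chosen with earlier results of these data known. Named were all troponins, up to 4 called genes per list with the smallest adjusted p, and the 3 nearest profiles per tested troponin. The result of 1 listed gene is not reported here. The edgeR test was run on simulated counts, in which far fewer genes changed than passed here. How it behaves under so broad a change was therefore not tested. Alternatives were DESeq2 1.42.0, limma-voom (limma 3.58.1), other scalings and filters, a replicate block and each library left out.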

Additional observations from a re-analysis of the deposited data

How the results depend on the processing

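The rises of Tnnc1, Tnnc2, Tnnt2 and Tnnt3 kept their direction and passed in each of the 13 alternatives, whose log2 fold changes spanned 1.51 to 1.66, 0.91 to 1.00, 0.96 to 1.09 and 0.54 to 0.86. These ends are also the range with 1 library left out. The highest adjusted p was 0.0488 for Tnnt3 (without siNT replicate 1), and DESeq2 gave it 0.0463. The count of genes passing was 5971 in the main edgeR test, 4618 with DESeq2 and 6276 with no filter, and 5109 to 6254 with 1 library left out.

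The labels do not say that equal replicate numbers mark a shared culture, and deviations of same-numbered libraries from their group means correlated at -0.0018, -0.060 and 0.023, so the numbers were not taken as pairs. With the replicate block, 5897 genes passed, and the fold changes were 1.58 for Tnnc1, 1.00 for Tnnt2, 0.96 for Tnnc2 and 0.74 for Tnnt3, all passing. The Tnnc1 to Tnnc2 ratio difference was 0.61 within numbered pairs (exact sign-flip p = 0.25, the smallest possible) and 0.50 to 0.69 with 1 library left out. The Tnnt2 to Tnnt3 difference was 0.12 to 0.48, and the pooled Tnnt1 ratio 1.51 to 2.95, both on the log2 scale. Depth limits Tnnt1, Tnni2 and Tnni3. With no filter, edgeR gave adjusted p = 0.348 for Tnni2 and 0.762 for Tnni3.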

Other observations

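Genes nearest in order to the troponins on the chromosome, taken from RefSeq assembly GRCr8 after the fold changes had been seen, differed from locus to locus. Some lay far off, such as Tmem9 at 171704 bases from Tnnt2. Up to 3 protein-coding neighbours on each side were read, and those tested are given. Around Tnnt3, the tested neighbours were all higher in the libraries labelled siMt2, as were 25.8% of all genes tested. On one side were Prr33 (log2 fold change 1.20, edgeR adjusted p = 8.61e-04) and Lsp1 (0.97, adjusted p = 5.47e-07), at 1781 and 4123 bases. On the other were Mrpl23 (0.43, adjusted p = 0.0109) and the growth factor gene Igf2 (1.85, adjusted p = 5.24e-14), at 17916 and 144859 bases. Whether the locus changed as a whole was not tested. Around Tnnt2, the tested neighbours Phlda3 (8.1e-04, adjusted p = 0.990), Pkp1 (0.026, adjusted p = 0.643) and Tmem9 (0.030, adjusted p = 0.761) did not pass, while Tnnt2 itself rose by 1.01. Around Tnnc1, Nisch (-0.40, adjusted p = 1.09e-06) and Bap1 (-0.71, adjusted p = 3.24e-06) fell, and Stab1 (-0.86, adjusted p = 0.0554), Nt5dc2 (0.13, adjusted p = 0.184) and Phf7 (0.20, adjusted p = 0.497) did not pass. Around Tnnc2, Ube2c, which encodes a ubiquitin-conjugating enzyme of mitosis, rose from 2.03 to 12.0 CPM (2.60, adjusted p = 1.54e-07), and Zswim3 rose (0.54, adjusted p = 0.0123). The siNT level of Ube2c alone was too low for a test, so it entered through siMt2, where it is higher. Snx21 (-0.29, adjusted p = 0.0649), Dnttip1 (0.086, adjusted p = 0.684) and Acot8 (0.11, adjusted p = 0.687) did not pass. Whether reads of neighbouring genes entered the troponin counts was not tested.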
